A study of Mus musculus with 20 samples.

Results

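The nuclear-encoded respiratory chain subunits are the proteins that the nucleus supplies to complexes I to V of the inner mitochondrial membrane. Members were taken by name: every protein-coding gene whose symbol begins with Nduf, Sdha, Sdhb, Sdhc, Sdhd, Uqcr, Cox4i, Cox5, Cox6, Cox7, Cox8 or Atp5. The rule used no measured value, and it found 98 gene IDs with 97 symbols among 56941 gene IDs, since Atp5o stood under a pair of IDs. Of the 98, 92 had enough reads to be tested, 82 of these averaged at least 10 CPM (a gene's counts scaled to a library of 1e6 counts) over the 20 libraries and were taken as well read, and 6 were not tested. Besides subunits, the symbols take in assembly factors (Ndufaf and Sdhaf genes) and a few tissue-restricted or stress-related isoforms. They leave out subunits with other names.

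The samples were cells of BV-2, a mouse line of immortalized microglia, either labelled RGS10 knockout or wild type. Each line received IFNγ at 10 ng/mL or vehicle (medium) for 48 h, and poly(A)-selected RNA was sequenced. The groups were knockout cells with IFNγ, knockout cells with vehicle, wild-type cells with IFNγ and wild-type cells with vehicle, with 5 biological replicates each. Replicates 1 to 3 were labelled batch 1, replicate 4 batch 2 and replicate 5 batch 3. RGS10 is a regulator of G protein signalling that is abundant in microglia, and the study's title links it to BV-2 migration. Where the RGS10 gene was edited, and whether the knockout line is 1 clone, is not given by the labels or the table, so a difference between the lines cannot be told apart from a difference between cell clones.

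Complexes I and II pass electrons from NADH and succinate to ubiquinone, complex III passes them on to cytochrome c, and complex IV hands them to oxygen. Complexes I, III and IV pump protons, and complex V, the ATP synthase, lets the protons flow back to make ATP. A few core subunits of complexes I, III, IV and V are encoded in mitochondrial DNA, whereas complex II and all other subunits come from nuclear genes. Macrophages and microglia exposed to IFNγ are known to lean on glycolysis and to make nitric oxide and itaconate, which act on the respiratory chain.

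Libraries held 15866749 to 29157740 counts, and levels below are CPM on library sizes scaled by TMM (trimmed mean of M values). The IFNγ libraries of batches 2 and 3 stood apart from the rest. Their scaling factors were 0.892 and 0.879 in knockout cells and 0.635 and 0.764 in wild-type cells, against at least 1.01 in the other 16 libraries. Malat1, a nuclear RNA used here as a sign of RNA quality, stood at 1446 and 1004 CPM of plain totals in these knockout libraries and at 1514 and 955 CPM in these wild-type libraries, against at most 386 CPM elsewhere. Its part in the results was not tested, and results are therefore also given by batch. All 10 microglia and macrophage markers were read (summed level 1860 to 2950 CPM of plain totals), although the microglia-defining P2ry12 and Tmem119 were low, at most 7.53 and 18.7 CPM. The 5 astrocyte and the 5 fibroblast markers each stayed under 1 CPM in all 20 libraries, while the sums over the 5 neuron and the 5 oligodendrocyte markers reached 13.4 and 6.92 CPM. The 5 endothelial markers summed to 195 to 688 CPM in knockout cells with IFNγ, 121 to 189 CPM in knockout cells with vehicle, 375 to 565 CPM in wild-type cells with IFNγ and 198 to 324 CPM in wild-type cells with vehicle. Nearly all of this was Flt1, and the endothelium-defining Cldn5 was at most 0.0408 CPM. Rgs10 itself, the label check, stood at 21.1, 17.8, 17.1, 50.5 and 15.5 CPM in knockout cells with IFNγ and at 30.3, 25.6, 28.2, 34.6 and 22.6 CPM in knockout cells with vehicle. In wild-type cells it stood at 23.3, 22.2, 23.7, 50 and 28.7 CPM with IFNγ and at 55.1, 59.9, 64.5, 73 and 62.7 CPM with vehicle. Knockout cells thus lay below wild-type cells under vehicle without overlap (log2 difference −1.17 ± 0.17, adjusted p = 3.23e-05), while under IFNγ the lines overlapped (log2 difference −0.33 ± 0.17, adjusted p = 0.134). Reads outside an edited site check nothing, so the libraries follow their labels here only as far as these values go.

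IFNγ lowered a large share of the members in both lines, mostly by less than 2-fold, and hardly raised any. In knockout cells 34 of the 92 tested members fell and 0 rose, where 21.8% of all 13755 tested genes fell and 21.4% rose. In wild-type cells 38 fell and 4 rose, where 29.9% of all genes fell and 29% rose. Called means a Benjamini-Hochberg adjusted p under 0.05 in edgeR's quasi-likelihood test with group and batch as terms, and "rose", "fell", "higher" and "lower" are used only of calls. The count of 0 in knockout cells was also 0 at an unadjusted p under 0.05, and DESeq2 and limma-voom likewise called 0 higher, against 34 lower by edgeR and 35 lower by each of the other tools. The members' median log2 difference was −0.24 in knockout cells and −0.26 in wild-type cells, beside −0.02 and 0.01 over all tested genes. The same 27 members fell in both lines (79.4% of the 34 and 71.1% of the 38), and 43 were called in neither. Of the 82 well-read members, 32 fell in knockout cells, and 34 fell and 4 rose in wild-type cells. As a share of all counts in a library, the members took 0.659% to 1.06% in knockout cells with IFNγ, against 1.21% to 1.32% in knockout cells with vehicle. They took 0.784% to 0.929% in wild-type cells with IFNγ, against 1.18% to 1.34% in wild-type cells with vehicle. On these plain totals, without TMM scaling, the groups did not overlap in either line. On the TMM scale the members' median log2 difference in batch 2 was above 0, at 0.14 in knockout cells and 0.09 in wild-type cells. In a bulk sample fewer cells of a kind and less RNA per cell cannot be told apart.

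**Figure D1:**
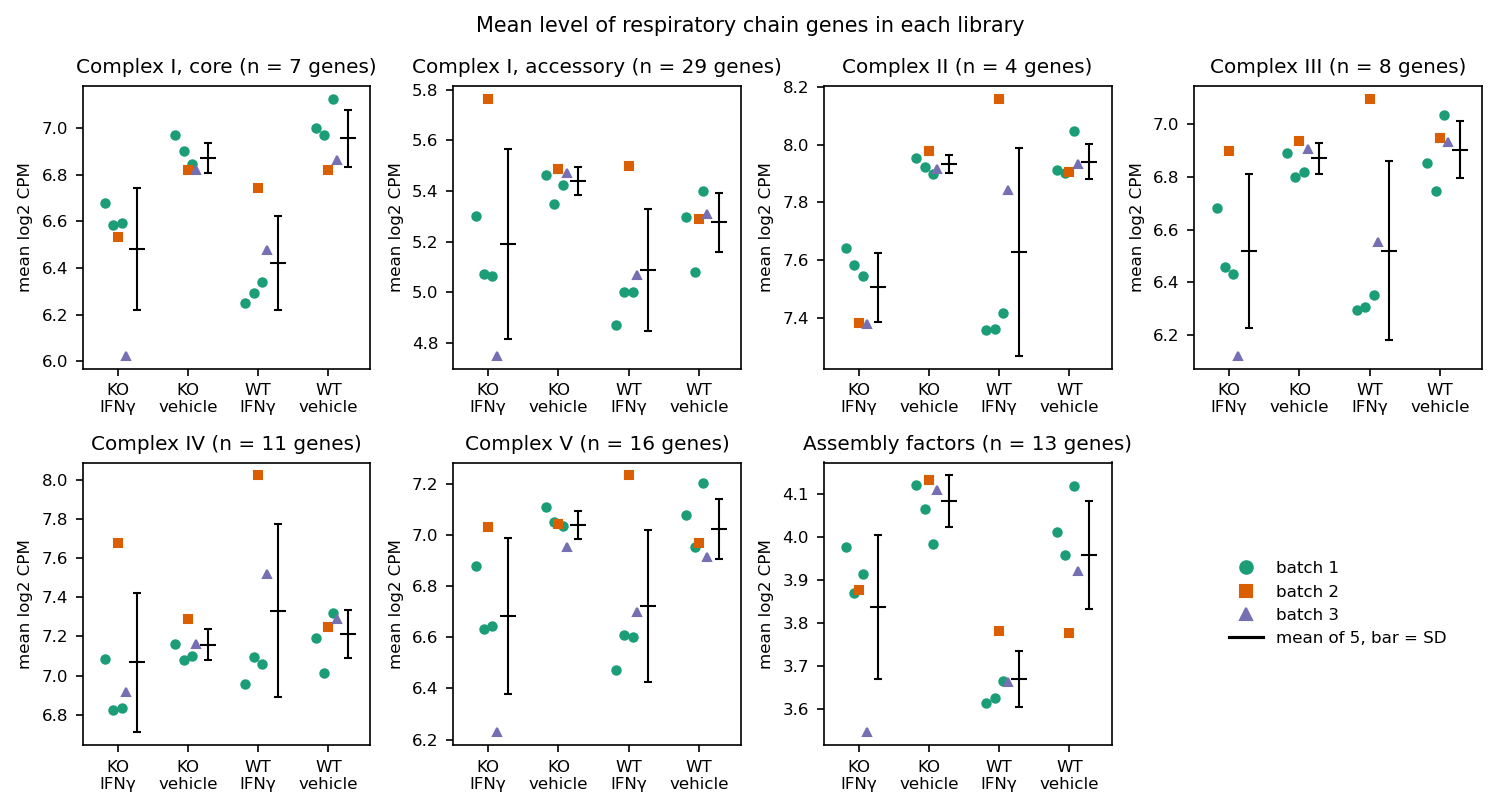
Mean log2 CPM of the tested members of each class (y axis) in each library, by group (x axis: knockout with IFNγ, knockout with vehicle, wild type with IFNγ, wild type with vehicle). Points are libraries, marked by batch, and bars are the mean ± SD of 5 libraries. The core subunits of complex I lie lower with IFNγ in both lines without overlap. Complex II and the assembly factors do so in knockout cells only, and the other classes, complex IV among them, overlap in both lines.

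The size of the members' median difference, and also its sign, depended on the batch. In knockout cells the members' median log2 difference was −0.26 in batch 1, 0.14 in batch 2 and −0.74 in batch 3. In wild-type cells it was −0.41 in batch 1, 0.09 in batch 2 and −0.25 in batch 3. Over all tested genes the batch 2 median was −0.07 in knockout cells and −0.10 in wild-type cells. The knockout median was −0.16 without knockout IFNγ replicate 5. With batch 1 alone, 48 of 91 members fell and 1 rose in knockout cells, and 60 fell and 4 rose in wild-type cells. Of all genes, 28.4% and 36.7% fell there, and 28.1% and 37.4% rose. With batches 2 and 3 alone, 14 of 92 fell and 1 rose in knockout cells, and 7 fell and 12 rose in wild-type cells. On that subset 14.6% and 18.6% of all genes fell, and 15.3% and 17.1% rose. The wild-type share of falling members there thus lay below the background, as did the share of rising members in both lines. Scaling moved the size as well: on plain library totals the median over all genes was −0.16 in knockout cells and −0.21 in wild-type cells, and the members' median was then −0.38 and −0.50.

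Complex I has a catalytic core, conserved from bacteria, and a shell of accessory subunits. Of the 7 nuclear core subunits, 4 fell in knockout cells (median log2 difference −0.44) and 5 fell in wild-type cells (median −0.69). Ndufs1, the large iron-sulfur subunit of the arm that accepts electrons from NADH, stood at 130, 129.9, 129.9, 64.1 and 92.5 CPM (replicates 1 to 5) in knockout cells with IFNγ, against 196, 189, 180.2, 155 and 156 CPM in knockout cells with vehicle (log2 difference −0.72 ± 0.10, adjusted p = 2.09e-05). In wild-type cells it stood at 92.5, 91, 94.5, 71.3 and 85.6 CPM with IFNγ, against 180.2, 174, 175, 122 and 139 CPM with vehicle (log2 difference −0.85 ± 0.10, adjusted p = 1.13e-06). Every IFNγ library lay below every vehicle library of its line, and the call was kept in all 30 alternative settings for both lines. The lowest knockout value came from batch 2, where the difference was −1.27, against −0.54 in batch 1. Ndufv2, an iron-sulfur subunit beside the NADH site, stood at 112, 103, 96.2, 69.3 and 62.3 CPM in knockout cells with IFNγ, against 144, 140, 128, 130.3 and 120.2 CPM with vehicle (log2 difference −0.60 ± 0.11, adjusted p = 0.000323). It stood at 69.6, 74.7, 71.3, 78.1 and 72.6 CPM in wild-type cells with IFNγ, against 125, 123, 126, 114 and 109 CPM with vehicle (log2 difference −0.69 ± 0.11, adjusted p = 3.37e-05). Again the groups of each line lay apart, with the lowest knockout values in batches 2 and 3.

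Of the 29 accessory subunits of complex I, 12 fell in knockout cells, and 12 fell and 2 rose in wild-type cells. Ndufb11, a membrane-arm subunit, stood at 72, 68.9, 60.9, 74 and 40.6 CPM in knockout cells with IFNγ, against 89.3, 84.7, 81.3, 97.8 and 86.1 CPM with vehicle (log2 difference −0.49 ± 0.12, adjusted p = 0.00307). Its level was 37, 40.8, 41.1, 61 and 32.9 CPM in wild-type cells with IFNγ, against 76.6, 66.3, 73.9, 85.6 and 72.8 CPM with vehicle (log2 difference −0.84 ± 0.12, adjusted p = 8.72e-06). The groups lay apart in both lines, and batch 3 gave the lowest IFNγ value in each. Ndufb10, which also lies in the membrane arm, fell in knockout cells by a log2 difference of −0.53 ± 0.14 (SE), and Ndufb5, of the same arm, by −0.69 ± 0.13 in wild-type cells. The exceptions were Ndufa1, a small membrane-anchored subunit needed for assembly of the complex, and Ndufa7, of the peripheral arm, the 2 accessory subunits that rose in wild-type cells. Ndufa1 stood at 29.7, 21.9, 20.6, 67 and 50.3 CPM in knockout cells with IFNγ, against 25.8, 23.6, 26.9, 41.2 and 40.5 CPM with vehicle (log2 difference 0.14 ± 0.16, adjusted p = 0.471). In wild-type cells it stood at 30.6, 34.9, 36.2, 109 and 60.7 CPM with IFNγ, against 18.6, 15.4, 19.1, 36 and 41.6 CPM with vehicle (log2 difference 0.99 ± 0.16, adjusted p = 2.25e-05). Within every batch the wild-type IFNγ libraries lay above the vehicle ones, although the groups overlapped across batches, levels being higher in batches 2 and 3 in all groups. Ndufa7 rose by less, a log2 difference of 0.38 ± 0.12 in wild-type cells, and that call was lost on plain library totals.

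Complex II, succinate dehydrogenase, is both a Krebs cycle enzyme and an entry point for electrons, and its 4 subunits behaved unequally. Sdha, the flavin-bearing subunit that oxidizes succinate, stood at 468, 456, 458, 278 and 354 CPM in knockout cells with IFNγ, against 582, 597, 596, 682 and 659 CPM with vehicle (log2 difference −0.62 ± 0.16, adjusted p = 0.00502). It stood at 223, 232, 242, 411 and 298 CPM in wild-type cells with IFNγ, against 398, 405, 413, 433 and 464 CPM with vehicle (log2 difference −0.60 ± 0.16, adjusted p = 0.00385). The knockout groups lay apart, while in wild-type cells the batch 2 IFNγ library reached into the vehicle range. The membrane anchors Sdhc and Sdhd fell in knockout cells. Sdhd stood at 162, 141, 135, 114 and 169 CPM there with IFNγ, against 229, 225, 218, 199.9 and 202 CPM with vehicle (log2 difference −0.58 ± 0.16, adjusted p = 0.00788). In wild-type cells Sdhd stood at 134, 129.8, 139.8, 249 and 216 CPM with IFNγ, against 191, 195, 226, 179 and 173 CPM with vehicle (log2 difference −0.17 ± 0.17, adjusted p = 0.394). There it lay below the vehicle level in batch 1 and above it in batches 2 and 3. Sdhb, the iron-sulfur subunit, was not called in either line (−0.10 ± 0.13 in knockout cells and −0.18 ± 0.13 in wild-type cells).

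In complex III, which takes electrons from ubiquinol, 4 of 8 members fell in knockout cells (median log2 difference −0.34) and 5 of 8 in wild-type cells (median −0.50). Uqcrc1 and Uqcrc2 are the large core proteins facing the matrix, related to mitochondrial processing peptidases. Uqcrc2 stood at 164, 168, 165, 107 and 106 CPM in knockout cells with IFNγ, against 225, 207, 192, 206 and 198 CPM with vehicle (log2 difference −0.55 ± 0.12, adjusted p = 0.00123). It stood at 102, 93, 92.8, 117 and 86.6 CPM in wild-type cells with IFNγ, against 176, 184, 181, 172 and 168 CPM with vehicle (log2 difference −0.85 ± 0.12, adjusted p = 7.86e-06). Uqcrc2 kept its call in all 30 settings for both lines, and its groups lay apart in each. Uqcrc1 stood at 181, 172, 172, 141 and 84.8 CPM in knockout cells with IFNγ, against 224, 210.4, 209, 202 and 209 CPM with vehicle (log2 difference −0.52 ± 0.15, adjusted p = 0.00771). In wild-type cells it stood at 187, 191, 179, 261 and 194 CPM with IFNγ, against 411, 399.6, 438, 348 and 332 CPM with vehicle (log2 difference −0.92 ± 0.15, adjusted p = 2.58e-05). Its wild-type batch 2 IFNγ library was the highest of that group but still below every vehicle library. Of the small subunits, Uqcr11 fell in both lines (−0.71 ± 0.17 in knockout cells and −0.64 ± 0.17 in wild-type cells). Uqcrb, which sits at the ubiquinone site, also fell in both (−0.41 ± 0.15 and −0.45 ± 0.15), but in knockout cells the call was lost when any 1 of 6 knockout libraries was left out (replicates 2, 3 and 5 of either treatment).

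Complex IV, cytochrome c oxidase, had the smallest share of falling members of the 5 complexes in each line. Of its 11 generally expressed members, 1 fell in knockout cells (9.09%) and 2 fell in wild-type cells (18.2%), with medians of −0.05 and 0.25. Of all genes, 21.8% and 29.9% fell there. By batch (1, 2 and 3) the medians were −0.13, 0.44 and −0.04 in knockout cells and −0.09, 0.96 and 0.46 in wild-type cells. The positive wild-type median thus came from batches 2 and 3. Over complexes I, II, III and V together they were −0.30, 0.08 and −0.81 in knockout cells and −0.46, 0.07 and −0.40 in wild-type cells. The member that fell in both lines was Ndufa4, which is named for complex I but is known as a complex IV subunit. Ndufa4 stood at 69.6, 61, 64.2, 72.3 and 58.2 CPM in knockout cells with IFNγ, against 101, 90, 97.7, 105 and 97.1 CPM with vehicle (log2 difference −0.59 ± 0.10, adjusted p = 0.000144). It stood at 64.9, 66, 69, 93.5 and 84.2 CPM in wild-type cells with IFNγ, against 104, 95.1, 110.5, 94.8 and 98.9 CPM with vehicle (log2 difference −0.43 ± 0.10, adjusted p = 0.00152). In both lines every IFNγ library lay below every vehicle library. AA467197 (Nmes1), an Ndufa4 relative that is known to take its place in complex IV during inflammation, is no member by name and showed the opposite course. It stood at 3.89, 3.62, 5.39, 17.2 and 36.1 CPM in knockout cells with IFNγ, against 0.0722, 0.0803, 0, 0 and 0.0809 CPM with vehicle, where it was read in only 3 of 5 libraries. In wild-type cells it stood at 23.7, 32.5, 24.7, 84.8 and 147 CPM with IFNγ, against 0.323, 0.277, 0.0459, 0.806 and 0.953 CPM with vehicle (log2 difference 7.02 ± 0.33, adjusted p = 6.02e-12). The fitted log2 difference in knockout cells was 7.76 ± 0.43, and since the vehicle libraries held almost no reads, its size depends on the prior count of the fit. Under IFNγ the AA467197 level was lower in knockout cells than in wild-type cells in every batch (log2 difference −2.43 ± 0.24, adjusted p = 2.11e-07). On this scale, which is not per length, levels of Ndufa4 and AA467197 cannot be set against each other.

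Cox4i1, the common isoform of the regulatory subunit 4, was the other complex IV member to fall in wild-type cells, at 262, 289.5, 285, 397 and 283 CPM with IFNγ, against 357, 329.9, 414, 389.7 and 374 CPM with vehicle (log2 difference −0.31 ± 0.13, adjusted p = 0.0463). That call was lost in 17 of the 30 settings. Cox8a, a small membrane subunit, stood at 208, 224, 220.2, 714 and 407 CPM in wild-type cells with IFNγ, against 234, 204, 257, 254 and 276 CPM with vehicle (log2 difference 0.38 ± 0.18, adjusted p = 0.0781). Its batch 2 and batch 3 libraries lay far above the vehicle range and its batch 1 libraries within it. Cox7a2l, which joins complexes III and IV into supercomplexes, rose in wild-type cells, at 121, 129.8, 137, 559.5 and 260.2 CPM with IFNγ, against 87.5, 88.6, 98.7, 186 and 195 CPM with vehicle (log2 difference 0.74 ± 0.18, adjusted p = 0.00172). In knockout cells it stood at 142, 130.2, 129, 242 and 219.8 CPM with IFNγ, against 128, 121, 120.3, 183 and 148 CPM with vehicle (log2 difference 0.25 ± 0.18, adjusted p = 0.281). The wild-type rise was seen within each batch and was 0.44 without replicate 4 of the IFNγ group. The tissue-restricted or stress-related isoforms were low or near absent. Cox7a1 lay between 0.186 and 6.33 CPM, Cox4i2 stayed at or below 2.03 CPM in every library, Cox7b2 and Cox8c had no read, and Cox6b2, Cox8b and Ndufa4l2 had too few reads to test. Cox6a2, the heart and muscle isoform of subunit 6a, fell in wild-type cells (log2 difference −1.27 ± 0.44, adjusted p = 0.017), at 1.57, 1.93, 3.18, 3.59 and 4.21 CPM with IFNγ, against 3.44, 3.46, 3.08, 17.9 and 12.6 CPM with vehicle. The call was lost when the vehicle library of batch 2 or of batch 3 was left out and kept with batch 1 alone, where the log2 difference was smaller (−0.59).

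**Figure D2:**
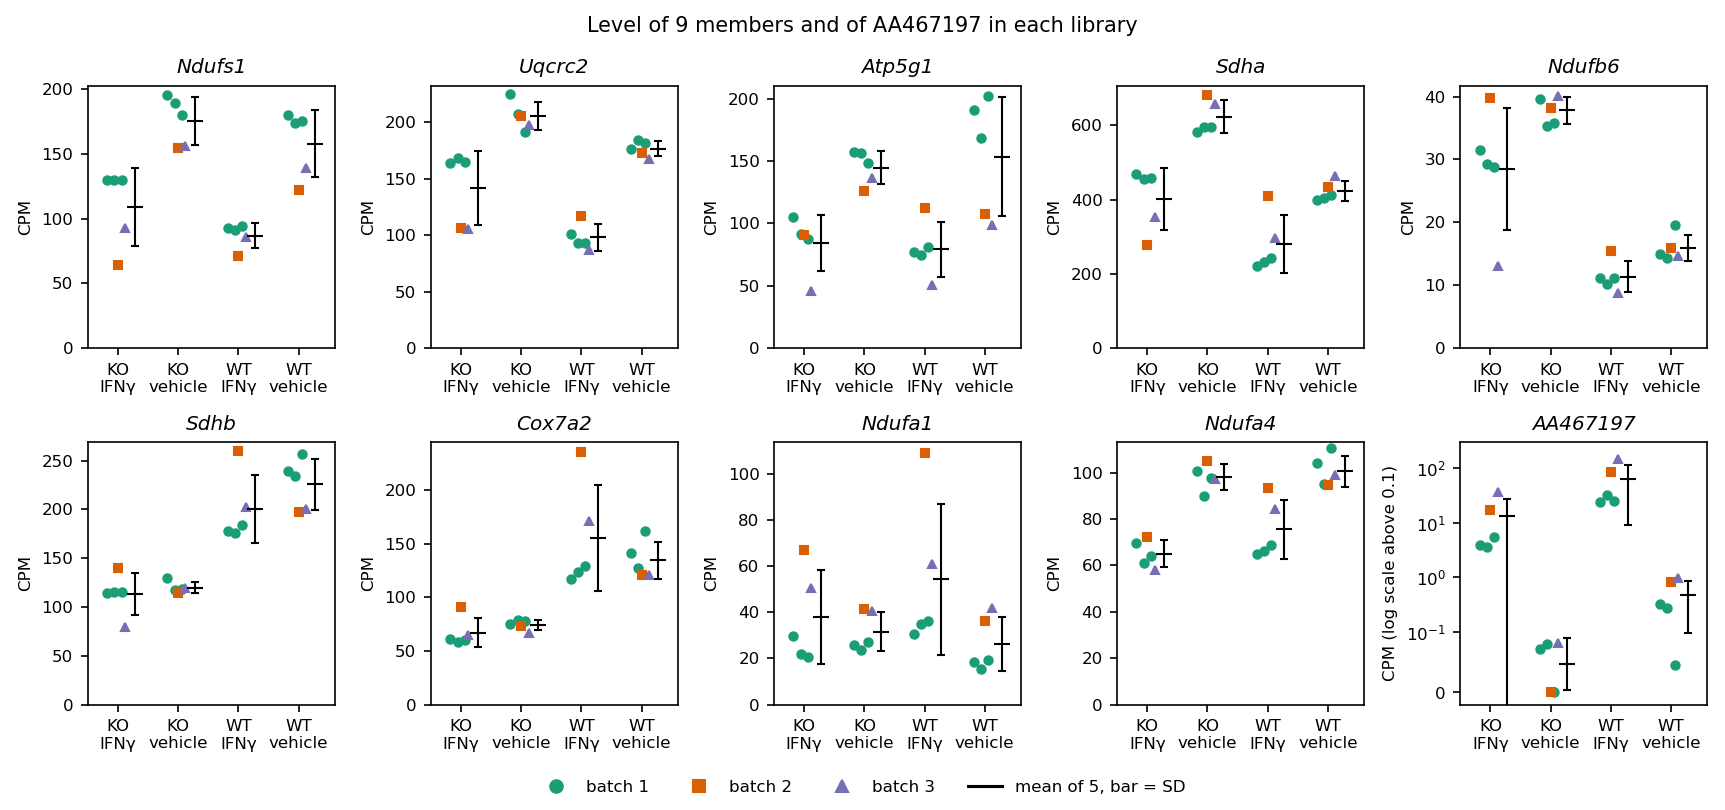
TMM-scaled CPM of 9 members and of AA467197 (y axis, linear from 0 for the members, log above 0.1 for AA467197) in each library, by group (x axis: knockout with IFNγ, knockout with vehicle, wild type with IFNγ, wild type with vehicle). Points are libraries, marked by batch, and bars are the mean ± SD of 5 libraries. Ndufs1, Uqcrc2 and Ndufa4 lie lower with IFNγ in both lines, Ndufb6 lies higher and Sdhb and Cox7a2 lie lower in knockout cells, and AA467197 appears with IFNγ.

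In complex V 7 of 16 members fell in knockout cells and 7 of 16 in wild-type cells. The F1 part (catalytic head and central stalk) gave 3 of its 5 subunits in each line. The rotating c ring gave 2 of its 3 genes in knockout cells and 3 of 3 in wild-type cells. Atp5a1, the alpha subunit of the head, stood at 749.5, 725, 730.2, 479.7 and 521 CPM in knockout cells with IFNγ, against 982, 944, 932, 894 and 924 CPM with vehicle (log2 difference −0.56 ± 0.15, adjusted p = 0.00559). In wild-type cells its level was 572, 563, 582, 874 and 598 CPM with IFNγ, against 1239, 1210, 1343, 972 and 997 CPM with vehicle (log2 difference −0.84 ± 0.15, adjusted p = 8.97e-05). The groups lay apart in both lines, with the highest wild-type IFNγ value in batch 2. The catalytic beta subunit Atp5b fell alongside it (−0.64 ± 0.18 in knockout cells and −0.62 ± 0.18 in wild-type cells). The c ring is built from 1 mature protein encoded by 3 genes, whose transcripts can therefore be compared as suppliers of the same subunit. Atp5g1 stood at 105, 91.3, 87.7, 90.6 and 45.8 CPM in knockout cells with IFNγ, against 157, 156, 148, 126 and 136 CPM with vehicle (log2 difference −0.84 ± 0.17, adjusted p = 0.00062). In wild-type cells Atp5g1 stood at 76.9, 74.9, 80.7, 113 and 50.5 CPM with IFNγ, against 191, 168, 202, 107 and 98.6 CPM with vehicle (log2 difference −0.94 ± 0.17, adjusted p = 0.000106). Its wild-type groups overlapped through the batch 2 IFNγ library, which lay above the vehicle libraries of batches 2 and 3. Atp5g3 fell in both lines without overlap (−0.58 ± 0.14 in knockout cells and −0.71 ± 0.14 in wild-type cells). Atp5g2 fell in wild-type cells (log2 difference −0.73 ± 0.14, adjusted p = 0.000233) and missed the threshold in knockout cells (log2 difference −0.30 ± 0.14, adjusted p = 0.1), and the difference between these responses was not called (log2 difference 0.43 ± 0.20, adjusted p = 0.221). Of the 4 subunits of the stator, which holds the head still, 1 fell in each line (25%). That is near the share of all genes that fell, 21.8% in knockout cells and 29.9% in wild-type cells.

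**Figure D3:**
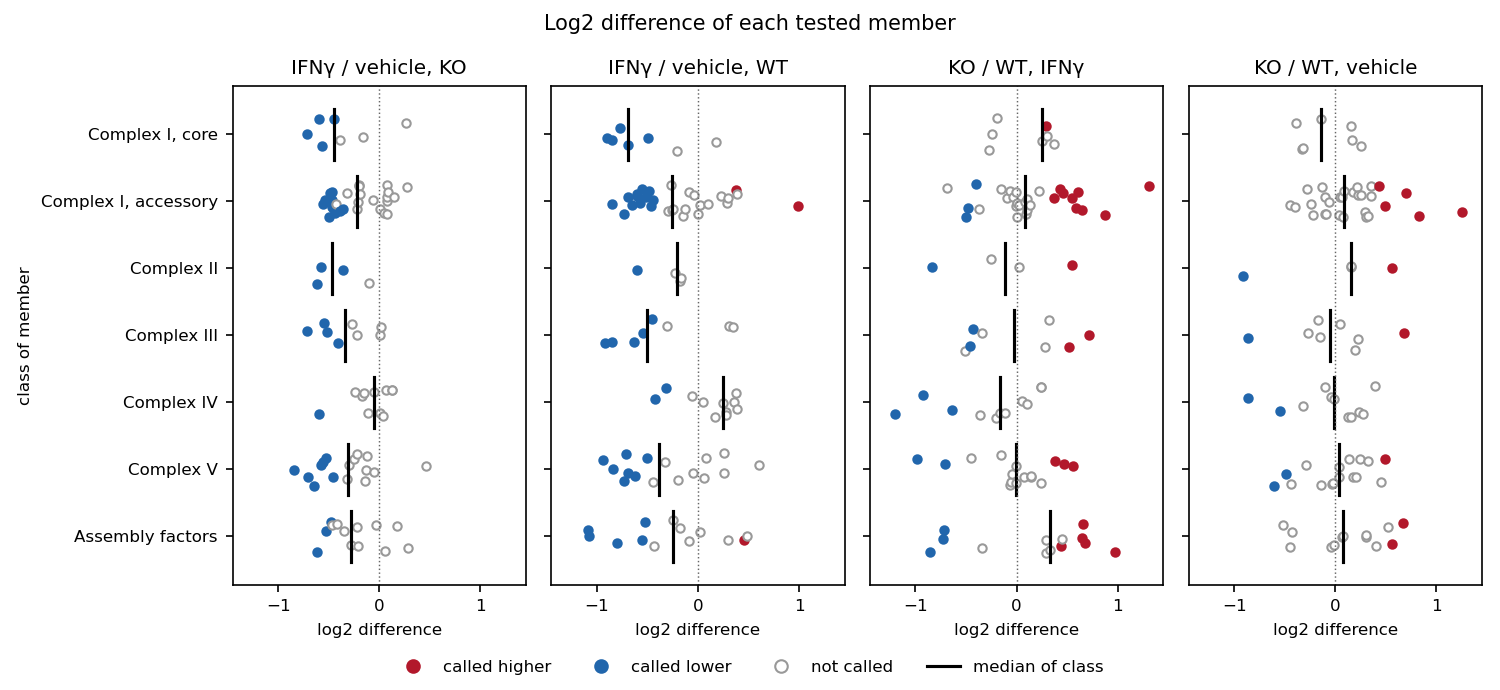
Log2 difference (x axis) of the members of each class (y axis) for IFNγ against vehicle in knockout and in wild-type cells and for knockout against wild type with IFNγ and with vehicle. Points are single genes, filled where called higher (red) or lower (blue), bars are class medians, and the 3 tissue-restricted complex IV isoforms and Cox7a2l are not drawn. Most called points lie below 0 for IFNγ against vehicle in both lines, and on both sides of 0 for knockout against wild type.

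Among 13 tested assembly factors, which build the complexes without staying in them, 3 fell in knockout cells (23.1%). In wild-type cells 5 fell (38.5%) and 1 rose (7.69%). Of all genes, 21.8% fell in knockout cells, and 29.9% fell and 29% rose in wild-type cells. The share of falling assembly factors in knockout cells was thus near the background. Ndufaf7, an assembly factor of complex I, stood at 28.4, 23.8, 26.4, 33 and 20.5 CPM in knockout cells with IFNγ, against 36.3, 35.9, 36.4, 39.9 and 34.5 CPM with vehicle (log2 difference −0.48 ± 0.12, adjusted p = 0.0038). It stood at 14.3, 14.7, 17.5, 20.7 and 16.6 CPM in wild-type cells with IFNγ, against 31.4, 30.5, 33.1, 38 and 42.5 CPM with vehicle (log2 difference −1.07 ± 0.12, adjusted p = 5.43e-07). The groups lay apart in both lines, by more in wild-type cells. Ndufaf6 fell in wild-type cells (−1.08 ± 0.25) and Ndufaf1, which joins the membrane arm's early intermediates, in knockout cells (−0.53 ± 0.17). The Ndufaf1 call in knockout cells was lost with batch 1 alone and without knockout vehicle replicate 4 or knockout IFNγ replicate 4 or 5. Sdhaf2, which attaches the flavin to Sdha, rose in wild-type cells (0.45 ± 0.18), but the sign turned with batch 1 alone (−0.07), and the call was lost without replicate 4 or 5 of either wild-type group.

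Knockout cells differed from wild-type cells member by member and not in 1 direction. Under IFNγ 21 members were higher and 14 lower in knockout cells, where 20% of all genes were higher and 19% lower. Under vehicle 10 were higher and 6 lower, where 12.5% of all genes were higher and 14.8% lower. As shares of the 92 these are 22.8% and 15.2% under IFNγ, near the background in each direction, and 10.9% and 6.52% under vehicle, the lower calls there lying below the background. Median log2 differences were 0.04 under IFNγ and 0.06 under vehicle, beside 0.01 and 0.03 over all genes, and leaving out 1 library took them across 0 (−0.01 to 0.15 under IFNγ, −0.0048 to 0.11 under vehicle). On plain library totals, where the median of all genes under IFNγ was 0.13, the IFNγ counts became 27 higher and 9 lower, of 22% and 13.3% of all genes. By batch, the members' median under IFNγ was 0.20 in batch 1, −0.11 in batch 2 and −0.36 in batch 3. With batch 1 alone, 46 were higher and 16 lower under IFNγ and 28 higher and 23 lower under vehicle (all genes 35.8% and 33.5%, and 28.4% and 30.0%). With batches 2 and 3 alone, 0 were higher and 10 lower under IFNγ and 1 was higher and 0 lower under vehicle, of 6.38%, 7.05%, 1.5% and 4.43% of all genes.

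Of the 29 accessory subunits of complex I, 9 were higher in knockout cells under IFNγ (31%) and 5 under vehicle (17.2%). Of all genes, 20% and 12.5% were higher there. Ndufb6, of the membrane arm, stood at 31.5, 29.2, 28.8, 39.7 and 13 CPM in knockout cells with IFNγ, against 11.2, 10.2, 11.1, 15.4 and 8.85 CPM in wild-type cells with IFNγ (log2 difference 1.31 ± 0.18, adjusted p = 1.23e-05). With vehicle it stood at 39.6, 35.3, 35.8, 38.2 and 40.1 CPM in knockout cells, against 15, 14.4, 19.6, 15.9 and 14.7 CPM in wild-type cells (log2 difference 1.26 ± 0.18, adjusted p = 2.21e-05). Under vehicle the lines lay far apart, and under IFNγ only knockout replicate 5 reached into the wild-type range. Ndufs6, a zinc-binding subunit of the peripheral arm, was higher by 0.65 ± 0.16 under IFNγ and by 0.82 ± 0.16 under vehicle. Ndufv3, an accessory subunit at the NADH site, stood at 67.6, 54.3, 58.1, 118 and 53.4 CPM in knockout cells with IFNγ, against 30.6, 32.3, 36.6, 59.3 and 30.4 CPM in wild-type cells with IFNγ (log2 difference 0.88 ± 0.18, adjusted p = 0.000579). With vehicle it stood at 90.1, 92.2, 94.8, 116 and 104 CPM in knockout cells, against 43.8, 40.5, 48.5, 87.8 and 99.2 CPM in wild-type cells (log2 difference 0.70 ± 0.18, adjusted p = 0.00534). The vehicle difference was largest in batch 1, and in batch 3 the lines were close together. Ndufa1 and Ndufa7, the accessory subunits that rose with IFNγ in wild-type cells, were lower in knockout cells under IFNγ (−0.50 ± 0.15 and −0.40 ± 0.12), and both calls were lost on plain library totals. For Ndufa1 the call was also lost without wild-type IFNγ replicate 4. Ndufb6 shares exon sequence on the opposite strand with Smim27 in the annotation, as 32 members do with some gene, and reads of such partners cannot be told apart where strand was not used in counting.

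Within complex II the lines differed in opposite directions for subunits of 1 enzyme. Sdha was higher in knockout cells under vehicle without overlap (log2 difference 0.56 ± 0.16, adjusted p = 0.0142). Under IFNγ Sdha was higher by 0.54 ± 0.16, with 468, 456, 458, 278 and 354 CPM in knockout cells, against 223, 232, 242, 411 and 298 CPM in wild-type cells, and this difference turned to −0.18 with batches 2 and 3 alone. Sdhb stood at 115, 115, 115, 139.8 and 79.4 CPM in knockout cells with IFNγ, against 178, 176, 184, 259.7 and 202 CPM in wild-type cells with IFNγ (log2 difference −0.83 ± 0.13, adjusted p = 4.18e-05). With vehicle it stood at 129.6, 117, 119, 114 and 119 CPM in knockout cells, against 239, 234, 257, 197 and 200.2 CPM in wild-type cells (log2 difference −0.91 ± 0.13, adjusted p = 2e-05). The lines lay apart under both treatments and in the same direction in every batch. Sdhaf4, which chaperones Sdha during assembly and averaged under 10 CPM, was higher in knockout cells under IFNγ (log2 difference 0.97 ± 0.21, adjusted p = 0.00111) and under vehicle (log2 difference 0.67 ± 0.21, adjusted p = 0.0205). The vehicle call was lost without replicate 4 of either line, wild-type replicate 2 or knockout replicate 5.

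Complex III differed in both directions too. Uqcrc1 was lower in knockout cells under vehicle, at 224, 210.4, 209, 202 and 209 CPM, against 411, 399.6, 438, 348 and 332 CPM in wild-type cells (log2 difference −0.86 ± 0.15, adjusted p = 0.000163), without overlap. Under IFNγ its difference was −0.46 ± 0.15, with batch values of −0.09 in batch 1, −0.89 in batch 2 and −1.19 in batch 3, and the call was lost with batch 1 alone and without wild-type replicate 4 or 5 or knockout replicate 5. Uqcrb was higher in knockout cells, at 77.2, 80.6, 83.2, 75.3 and 73.1 CPM with vehicle, against 53.6, 43.3, 53.4, 46.6 and 46 CPM in wild-type cells (log2 difference 0.68 ± 0.15, adjusted p = 0.00165). Under IFNγ Uqcrb stood at 69.3, 56.9, 58, 81.8 and 33.5 CPM in knockout cells, against 30.8, 34.6, 33.4, 46.8 and 34 CPM in wild-type cells (log2 difference 0.72 ± 0.15, adjusted p = 0.000756). Knockout replicate 5 was the only one of its group inside the wild-type range. Uqcrc2 was higher under IFNγ (log2 difference 0.52 ± 0.12, adjusted p = 0.00219) and was not called under vehicle (log2 difference 0.22 ± 0.12, adjusted p = 0.188).

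In complex IV the calls between lines were of lower levels in knockout cells, 3 of 11 under IFNγ (27.3%) and 2 of 11 under vehicle (18.2%). Of all genes, 19% and 14.8% were lower there, so these few calls show no direction of the complex. Cox7a2, the widely expressed isoform of subunit 7a, stood at 60.8, 58.1, 60.7, 90.9 and 64.8 CPM in knockout cells with IFNγ, against 117, 123, 129.8, 236 and 172 CPM in wild-type cells with IFNγ (log2 difference −1.20 ± 0.15, adjusted p = 4.63e-06). With vehicle it stood at 74.8, 78.7, 78, 73.2 and 66.5 CPM in knockout cells, against 141, 128, 162, 121 and 121 CPM in wild-type cells (log2 difference −0.86 ± 0.15, adjusted p = 0.000223). The lines lay apart under both treatments, and under IFNγ the call was kept in all 30 settings. Cox8a was lower by −0.92 ± 0.18 under IFNγ and by −0.55 ± 0.18 under vehicle, where the call was lost when any 1 of 5 vehicle libraries was left out. In complex V the small membrane proteolipid Atp5mpl stood at 36.7, 26.4, 32.4, 41.9 and 26.4 CPM in knockout cells with IFNγ, against 47.5, 58.7, 51.9, 91.9 and 73.6 CPM in wild-type cells with IFNγ (log2 difference −0.98 ± 0.16, adjusted p = 6.82e-05). With vehicle it stood at 44.6, 41, 42.2, 41 and 33.6 CPM in knockout cells, against 66.8, 59.1, 73.1, 57.1 and 50.2 CPM in wild-type cells (log2 difference −0.60 ± 0.16, adjusted p = 0.00699). Knockout values lay below all wild-type values under both treatments. Atp5d, the delta subunit of the central stalk, was lower under both treatments (−0.71 ± 0.16 with IFNγ and −0.49 ± 0.16 with vehicle), but without vehicle replicate 1 or 3 of wild-type cells, or 4 or 5 of knockout cells, the vehicle call was lost. Atp5j, which couples the stator to the head, and Atp5g2 were higher under IFNγ (0.56 ± 0.13 and 0.47 ± 0.14), and Atp5j2, in the membrane part, was higher under vehicle (0.50 ± 0.14). Of the assembly factors, Ndufaf2, a late chaperone of complex I, was higher under vehicle (0.56 ± 0.13), Ndufaf7 higher under IFNγ (0.66 ± 0.12) and Ndufaf3 and Sdhaf2 lower under IFNγ (−0.86 ± 0.18 and −0.73 ± 0.17).

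5 members were called in all 4 pairwise comparisons, which share libraries with each other. Sdha, Ndufb6, Ndufv3 and Uqcrb fell with IFNγ in both lines and were higher in knockout cells under both treatments, and Uqcrc1 was lower in all 4. The IFNγ fall of Ndufb6 in knockout cells (log2 difference −0.47 ± 0.18, adjusted p = 0.0387) lost its call in 9 of 30 settings, being −0.27 and not called without knockout IFNγ replicate 5 and not called either without knockout IFNγ replicate 2 or 3 or knockout vehicle replicate 1 or 5. Without knockout IFNγ replicate 5 the fall of Ndufv3 in knockout cells (log2 difference −0.55 ± 0.18, adjusted p = 0.0153) was not called either, and without wild-type vehicle replicate 3 or 5 that of Ndufb6 in wild-type cells (log2 difference −0.52 ± 0.18, adjusted p = 0.0189) was not called. The test of the difference between the IFNγ responses (knockout minus wild type) called 1 member higher and 1 lower, where 3.64% and 2.86% of all genes were called. Ndufa1 was the lower one (log2 difference −0.85 ± 0.22, adjusted p = 0.0251, with batch values of −1.03 in batch 1, −0.89 in batch 2 and −0.23 in batch 3), its rise in wild-type cells not being matched in knockout cells. Ndufaf7 was the higher one (log2 difference 0.60 ± 0.17, adjusted p = 0.0433, with batch values of 0.56 in batch 1, 0.61 in batch 2 and 0.60 in batch 3), having fallen by more in wild-type cells. The Ndufa1 call was lost in 8 of 30 settings, among them leaving out wild-type vehicle replicate 2, knockout vehicle replicate 1 or 3, or knockout IFNγ replicate 2 or 3. The Ndufaf7 call was lost in 21 settings, among them leaving out any 1 of 15 libraries. With batch 1 alone the same test called 39 members higher and 4 lower, of 29.7% and 21.6% of all genes, and with batches 2 and 3 alone it called 0 in either direction, of 0.728% and 0.119%. The IFNγ response of other members is thus not shown to differ between the lines over the 3 batches.

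Members with long coding sequences fell more with IFNγ than members with short ones. Ranked over the 92 tested members, the longest annotated coding length (156 to 2181 bases) and the log2 difference had a Spearman coefficient of −0.432 in knockout cells and −0.529 in wild-type cells. Over 11752 tested coding genes with a length the coefficients were −0.011 and −0.0647. By batch, the members' coefficient was −0.133, −0.526 and −0.288 in knockout cells and −0.614, −0.394 and −0.356 in wild-type cells (batches 1, 2 and 3). The members share their libraries and are not independent of each other, so these are descriptions. Of the 31 longest members (525 to 2181 bases), 19 fell in knockout cells and 20 in wild-type cells, with medians of −0.47 and −0.56. Among the 31 shortest (156 to 339 bases), 5 fell in knockout cells, and 7 fell and 2 rose in wild-type cells, with medians of −0.11 and 0.17. Complex IV members are short, so the classes were also set side by side over members of 189 to 507 bases. The medians there were −0.20 and −0.14 for 20 members of complex I (knockout and wild-type cells), −0.10 and 0.00 for 4 of complex III, −0.05 and 0.25 for 11 of complex IV and −0.25 and −0.32 for 9 of complex V. Within this range complexes I, III and V thus lay closer to complex IV than over all lengths. For complex V, whose medians over all lengths were −0.31 and −0.38, the shift was small, and complex III had only 4 members there.

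**Figure D4:**
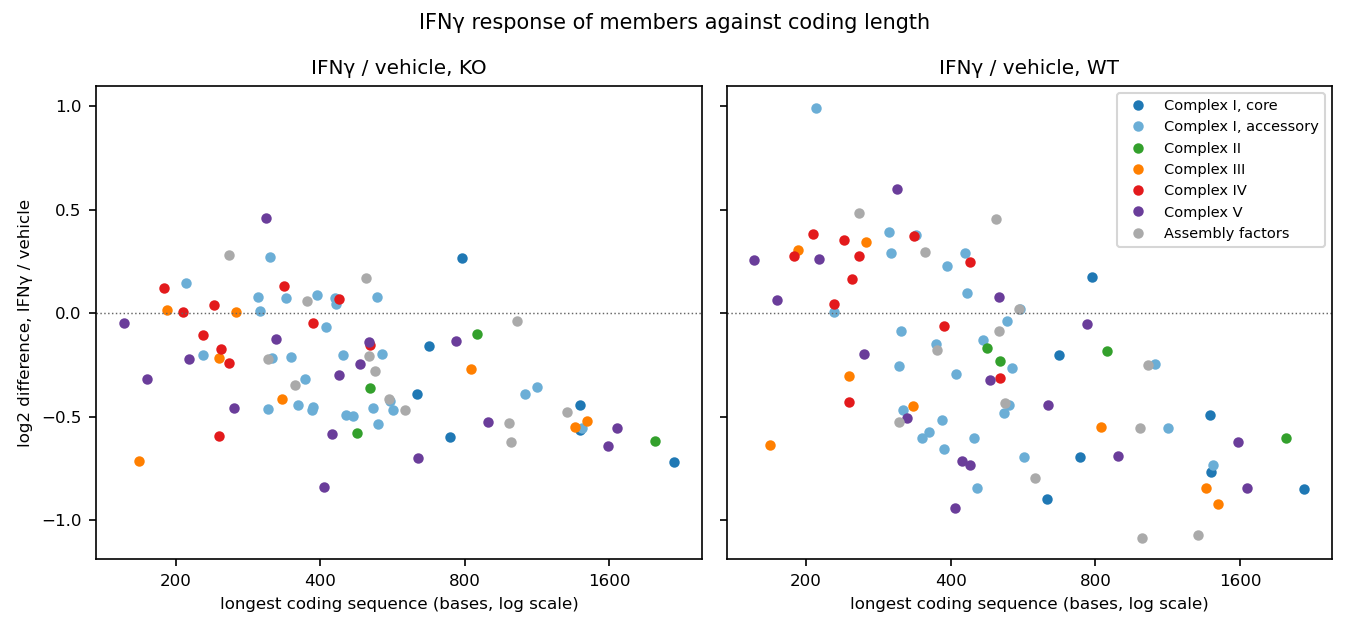
Log2 difference, IFNγ against vehicle (y axis), of each tested member by its longest annotated coding length in bases (x axis, log scale), in knockout cells (left) and wild-type cells (right). Points are genes, coloured by class, with the 3 tissue-restricted complex IV isoforms and Cox7a2l not drawn. Differences become more negative with length in both panels, with Spearman coefficients over all 92 members of −0.432 in knockout cells and −0.529 in wild-type cells.

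Nuclear respiratory genes are known for promoters bound by NRF1, by ETS-family factors such as GABP and by YY1, and the data hold members that fell in both lines beside members that were called in neither. RefSeq promoter windows on GRCm38.p6, from 250 bases before to 50 bases after a transcript start, matched 80 of the 97 symbols with 85 windows. On both strands they were searched for GCGCATGC (NRF1), CCGGAAG (ETS) and AAGATGGC (YY1), of which the ETS and YY1 motifs overlapped in 0 member windows. Of the members' windows, 14.1% held the NRF1 motif, 24.7% the ETS motif and 12.9% the YY1 motif, against 2.71%, 8.86% and 2.75% of all 32851 windows. At least 1 motif was in 27.3% of the 22 windows of members that fell in both lines, in 65.8% of the 38 windows of members called in neither line, in 43.5% of all members' windows and in 13.3% of all windows. The windows of Sdha and Atp5g1, which fell in both lines and hold none of the 3 motifs, of Uqcr11, which fell in both and holds NRF1 and ETS motifs, and of Cox6a1, which was called in neither line and holds both, are shown 5′ to 3′ with motifs in capitals. The first lies at chr13:74350191-74350490, the second at chr11:96075582-96075881, the third at chr10:80406772-80407071 and the last at chr5:115348909-115349208, all on the minus strand.
Sdha: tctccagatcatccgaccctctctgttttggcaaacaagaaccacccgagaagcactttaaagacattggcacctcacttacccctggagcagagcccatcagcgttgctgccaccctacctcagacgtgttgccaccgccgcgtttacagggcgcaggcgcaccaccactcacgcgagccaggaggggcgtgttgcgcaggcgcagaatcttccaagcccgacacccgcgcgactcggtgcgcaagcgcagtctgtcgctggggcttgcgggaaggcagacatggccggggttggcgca
Atp5g1: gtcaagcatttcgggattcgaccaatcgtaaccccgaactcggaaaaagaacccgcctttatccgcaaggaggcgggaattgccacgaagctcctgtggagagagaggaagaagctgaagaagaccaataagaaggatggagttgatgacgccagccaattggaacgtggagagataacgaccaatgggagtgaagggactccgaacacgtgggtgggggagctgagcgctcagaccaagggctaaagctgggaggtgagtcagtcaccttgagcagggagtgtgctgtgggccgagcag
Uqcr11: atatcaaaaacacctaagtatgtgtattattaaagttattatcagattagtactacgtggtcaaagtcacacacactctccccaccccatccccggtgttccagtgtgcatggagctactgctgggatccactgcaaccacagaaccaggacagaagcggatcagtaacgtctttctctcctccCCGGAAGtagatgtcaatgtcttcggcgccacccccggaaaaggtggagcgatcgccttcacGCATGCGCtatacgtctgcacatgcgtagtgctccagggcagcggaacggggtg
Cox6a1: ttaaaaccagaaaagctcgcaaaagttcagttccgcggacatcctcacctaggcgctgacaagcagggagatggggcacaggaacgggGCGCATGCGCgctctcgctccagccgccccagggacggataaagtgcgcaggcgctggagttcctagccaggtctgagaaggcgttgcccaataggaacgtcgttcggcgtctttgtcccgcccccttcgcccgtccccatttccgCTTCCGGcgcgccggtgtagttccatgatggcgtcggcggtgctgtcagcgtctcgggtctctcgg
In Uqcr11 the NRF1 motif, on the other strand, begins at base 247 of the window and the ETS motif at base 185. In Cox6a1 a single stretch reads as the NRF1 motif on both strands, from base 89 on the strand shown and from base 91 on the other. An ETS motif, also on the other strand, begins at base 235. Only exact matches were searched for, so a window counted as holding none can still hold sequences close to a motif. A match is a description of letters in the window and not a binding site, and the windows give the start that RefSeq annotates, which BV-2 cells need not use.

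Genes of the pathway outside the naming rule were followed from lists. For reading their counts, 21.8% of all genes fell and 21.4% rose in knockout cells, and 29.9% fell and 29% rose in wild-type cells. Of 7 tested subunits that carry other symbols, 1 fell in knockout cells, and 1 fell and 1 rose in wild-type cells. The faller in both lines was Cyc1, the cytochrome c1 subunit of complex III (−0.56 ± 0.14 in knockout cells and −0.61 ± 0.14 in wild-type cells), and the riser was Usmg5, a small subunit of complex V (0.46 ± 0.16). The Usmg5 call was lost on plain library totals, with batch 1 alone and without replicate 4 or 5 of either wild-type group. Of 10 tested subunits encoded in mitochondrial DNA, 1 rose in knockout cells and 2 rose in wild-type cells. Mt-Co1, the catalytic subunit of complex IV, rose in both (log2 difference 0.95 ± 0.31 in knockout cells and 1.35 ± 0.31 in wild-type cells). Its knockout call was lost on plain library totals, with batch 1 alone and without knockout IFNγ replicate 4 or 5, the libraries with high Malat1, and its wild-type call was lost with batches 2 and 3 alone. Under IFNγ 6 of the 10 were lower in knockout cells than in wild-type cells, where 19% of all genes were lower. Among them were mt-Nd6 of complex I (−1.63 ± 0.42) and mt-Cytb of complex III (−1.91 ± 0.50). For mt-Co1, mt-Cytb and mt-Nd5 that difference turned positive with batches 2 and 3 alone (0.22, 0.31 and 0.21). Poly(A) selection captures these transcripts through short tails, so their levels are not comparable with those of nuclear genes. They also differed widely among themselves. Mt-Co2, mt-Co3 and mt-Atp6 reached at most 6.33, 8.40 and 5.17 CPM, against at least 411 CPM for mt-Co1, and the reason was not tested.

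Of 33 tested assembly factors under other symbols, 14 fell and 3 rose in knockout cells (42.4% and 9.09%). In wild-type cells 15 fell and 8 rose (45.5% and 24.2%). Of all genes, 21.8% fell and 21.4% rose in knockout cells, and 29.9% fell and 29% rose in wild-type cells. Acad9, which helps to build complex I, fell in both (−0.92 ± 0.14 in knockout cells and −1.22 ± 0.14 in wild-type cells), as did Foxred1 of complex I (−0.70 ± 0.11 and −1.10 ± 0.11) and Tmem70 of complex V (−0.73 ± 0.11 and −1.02 ± 0.11). The complex IV factors Coa4 (0.65 ± 0.15 in knockout cells and 1.22 ± 0.15 in wild-type cells) and Cox17, a copper chaperone (0.91 ± 0.18 and 1.18 ± 0.18), rose in both. Cox15, which makes the heme of complex IV, fell in both and by less in knockout cells (difference of responses log2 difference 0.59 ± 0.17, adjusted p = 0.0386), a difference whose call was lost in 18 of 30 settings, among them the replicate block and leaving out any 1 of 12 libraries. Of 14 tested regulators of mitochondrial biogenesis, 8 fell in knockout cells (57.1%), and 8 fell and 2 rose in wild-type cells (57.1% and 14.3%). Gabpa, the DNA-binding part of GABP, fell in both (−0.61 ± 0.12 and −0.97 ± 0.12), as did Tfb2m, a mitochondrial transcription factor (−0.63 ± 0.11 and −1.02 ± 0.11), and Twnk, the mitochondrial DNA helicase (−1.29 ± 0.22 and −1.31 ± 0.22). Nrf1 and Esrra, activators of respiratory genes, rose in wild-type cells (0.45 ± 0.14 and 0.76 ± 0.13) and were not called in knockout cells (−0.10 ± 0.14 and 0.17 ± 0.13), a difference between the lines that missed the threshold for both (adjusted p = 0.0971 for Nrf1 and 0.0561 for Esrra). The Nrf1 rise was not called on plain library totals or with batch 1 alone, while that of Esrra was called in all 30 settings. Yy1 was lower in knockout cells under IFNγ (−0.70 ± 0.08) and under vehicle (−0.47 ± 0.08). Of 4 tested inflammatory partners of respiration, AA467197, Acod1, which makes itaconate, and Nos2, which makes nitric oxide, rose in both lines. Acod1 rose by 4.43 ± 0.33 in knockout cells and 4.32 ± 0.33 in wild-type cells, and Nos2 by 7.44 ± 0.42 and 7.11 ± 0.41.

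The 5 other genes whose log2 CPM ran most like the mean of the well-read members over the 20 libraries, with batch means removed, were Taf10 (Pearson r 0.953), Mrps15 (0.924), Idh3b (0.913), Mrpl30 (0.904) and H3f3a (0.901). Taf10 is a subunit of general transcription complexes, Mrps15 and Mrpl30 are mitochondrial ribosomal proteins, Idh3b is a subunit of a Krebs cycle enzyme and H3f3a encodes a histone H3 variant. Among the 82 well-read members themselves the coefficient with their own mean was highest for Atp5h, of the complex V stator (0.917), and Ndufb10 (0.909). It was below 0 for 4 members: Ndufa1 (−0.168), Cox7a2l (−0.0956), Sdhaf2 (−0.00806) and the assembly factor Ndufaf8 (−0.00593). These coefficients are descriptions over libraries that share groups, batches and depth.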

How the data were processed

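Poly(A)-enriched RNA of 20 BV-2 libraries, 4 groups of 5 that the labels call biological replicates, was available as 1 table of raw counts per gene as deposited by the authors. Per the submitters' processing notes the tools were FastQC, Trim Galore, STAR and DESeq2 with build GRCm39. Counter, strand setting and annotation were not given in the sources used here. Reads of overlapping genes or of processed pseudogenes could have been assigned either way. Whether replicates were separate cultures is not said, and p-values then measure only how these libraries vary, which may be technical. Totals ran from 15866749 to 29157740 counts, and each count column matched a library.

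Symbols came from GENCODE vM21 (GRCm38), which named 52000 of 56941 IDs (91.3%), and 13 matching symbols that are not protein coding were left out. The coordinates shown are those of RefSeq on GRCm38.p6, not of the counts. Genes were filtered with filterByExpr, scaled by TMM and fitted in edgeR 4.0.16 (R 4.3.3, limma 3.58.1) by robust quasi-likelihood with group and batch, leaving 14 residual degrees of freedom. P-values were adjusted by Benjamini-Hochberg over 13755 genes within each of the 5 comparisons. Errors beside log2 differences are SE. Alternatives were DESeq2 1.42.0, limma-voom, other scalings, no filter, no batch term, a replicate block, batch 1 alone, batches 2 and 3 alone, and leaving out each library. The fit was also run on simulated data with known changes in the wild-type IFNγ group and no batch differences. That run cannot show how the fit handles differences between batches. Same-number libraries of batch 1 correlated at −0.044 to 0.037 in their deviations, so numbers were not taken as pairs. No replicates were copies (chi-squared per degree of freedom 2.97 to 252).

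The members and the lists were chosen with earlier results of these data known. Named were, per class and comparison, the 2 strongest calls in each direction by p (or, with none called, the most abundant), isoform groups, members called in all 4 pairwise comparisons, Rgs10, the 5 genes of most similar profile, and up to 2 called genes each way per further list. Sdhc, Acod1 and some values of named members in further comparisons were added after their values were seen. A member that the rule names is not reported here.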

Additional observations from a re-analysis of the deposited data

Results flagged for a closer look

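Of 152 groups of 5 libraries examined for a single library far from the others, 12 had one, and chance gives about 1 in 20. Among single members the IFNγ library of batch 2 stood out high in knockout cells for Ndufv3 (117.8 CPM) and Cox7a2 (90.94 CPM). In wild-type cells the same batch stood out high with IFNγ for Ndufv3 (59.33 CPM), Uqcrc1 (261.1 CPM), Uqcrb (46.78 CPM), Cox4i1 (397.1 CPM), Atp5a1 (874.4 CPM) and Atp5b (1825 CPM). The IFNγ library of batch 3 stood out low in knockout cells for Atp5g2 (61.94 CPM). Among class means, knockout IFNγ replicate 5 stood out low for the complex I core (6.024 log2 CPM) and for assembly factors (3.545 log2 CPM), and wild-type vehicle replicate 3 stood out for complex II (8.049 log2 CPM). These batch 2 and 3 libraries are those with low scaling factors and high Malat1, whose part in the values was not tested.

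The IFNγ response differed between the lines, by the test of the difference (knockout minus wild type, log2), for Ndufa1 (−0.8496), Ndufaf7 (0.5966), the heme synthesis factor Cox15 (0.5933) and Rgs10 itself (0.8353). These calls were lost in 8 of 30 settings for Ndufa1, 21 for Ndufaf7, 18 for Cox15 and 18 for Rgs10, among them the replicate block for Ndufaf7, Cox15 and Rgs10.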

How the results depend on the processing

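Counts of called members moved most with the batches used. The shares of all genes called in these batch settings are given with the results above. With batch 1 alone, 60 members fell in wild-type cells with IFNγ (38 with all batches), 1 rose in knockout cells (0), 28 were higher and 23 lower in knockout cells under vehicle (10 and 6), 46 were higher under IFNγ (21), and 39 and 4 had a higher or lower response (1 and 1). With batches 2 and 3 alone, 14 fell and 1 rose in knockout cells with IFNγ, 7 fell and 12 rose in wild-type cells, 1 was higher and 0 lower in knockout cells under vehicle, 0 were higher under IFNγ, and 0 differed in response in either direction. Plain totals gave 2 members that rose in wild-type cells (4 with TMM), 9 lower in knockout cells under IFNγ (14), and 0 and 0 differing in response. DESeq2 gave 13 lower in knockout cells under vehicle (6) and 2 with a lower response (1). The higher response count of 1 became 0 with upper-quartile scaling, without the filter, without the batch term and with the replicate block, and the lower one became 0 without the batch term. The replicate block otherwise gave 31 falling members in knockout cells, 36 in wild-type cells and 17 higher in knockout cells under IFNγ, and changed no other count by more than 1.5 times.

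Leaving out 1 library at a time gave 24 to 38 falling members in knockout cells, and 35 to 43 falling and 3 to 11 rising in wild-type cells (11 without wild-type vehicle replicate 3, 8 without knockout IFNγ replicate 4, 7 without wild-type IFNγ replicate 1). It gave 8 to 15 higher and 4 to 13 lower in knockout cells under vehicle (13 without wild-type vehicle replicate 4, 10 without knockout IFNγ replicate 4 or 5), 16 to 27 higher and 11 to 17 lower under IFNγ, and 0 to 4 higher and 0 to 1 lower responses. Signs turned for Sdhaf2 with IFNγ in wild-type cells with batch 1 alone (−0.07264). They turned in knockout against wild-type cells under IFNγ with batches 2 and 3 alone for Ndufs1 (−0.03404), Sdha (−0.1817), Ucp2 (−0.2537), mt-Co1 (0.2176), mt-Cytb (0.3148) and mt-Nd5 (0.2051). The causes were not tested, beyond the fewer libraries in these settings. Of the named members' calls, 9 of 23 (IFNγ in knockout cells), 6 of 30 (IFNγ in wild-type cells), 7 of 26 (knockout under IFNγ), 0 of 14 (knockout under vehicle) and 0 of 2 (responses) were kept in all 30 settings. Without the batch 1 and the batches 2 and 3 settings, 16, 21, 19, 10 and 0 were kept. Low read numbers limit mainly the 10 tested members under 10 CPM and the 6 without a test. Among the former, Atp5o, Ndufb2 and Ndufb8 share exon sequence on the same strand with another gene ID, as 6 members do in all. The part of this overlap in their low counts was not tested.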
